A study of Homo sapiens with 2 samples.

Results

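The miRNAs described here are the late-numbered entries of a microRNA PCR card, miR-545 to miR-662, measured in CL1-5 cells. Members were defined by name, as every assay from miR-545 to miR-662 apart from miR-630, miR-654, miR-655, miR-656 and miR-660. This rule was set with earlier results of these data known. They made up 75 of the 365 miRNA assays on the card (20.5%). CL1-5 is an invasive human lung adenocarcinoma line, and the study compared cells stably carrying the empty pcDNA3.1 vector (the control) with cells stably overexpressing ANGPTL1, a secreted angiopoietin-like protein. Both kinds of cell had been selected with the antibiotic G418 for 4 weeks, and 500 ng of total RNA from each was reverse transcribed. There was 1 RNA sample of each and the number of clones behind each is not stated, so no difference below has a replicate check, and each compares these 2 samples only. Each assay gave a threshold cycle, the PCR cycle at which fluorescence passes a set level, so that 1 cycle earlier means about 2-fold more template if every cycle doubles it. PCR ended at cycle 40, so an assay listed at 40 did not amplify, and a miRNA counted as detected below cycle 35.

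A mature miRNA is a short RNA cut from a hairpin precursor, and it guides Argonaute proteins to messenger RNAs that pair with its seed, bases 2 to 8. miRNA numbers were given largely in order of discovery. Low numbers hold many conserved, abundant families, whereas most numbers in the range studied here were assigned to scarce and poorly conserved human sequences, and some were later withdrawn because they were not miRNAs. Many of these genes lie inside host genes on the same strand and can be transcribed with the host.

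Of the 75 members, 72 had a miRNA gene in RefSeq's annotation of GRCh38.p14, and 3 did not, namely miR-565, miR-566 and miR-594. Mature sequences were found for 63 members, and for 24 of them RefSeq lists more than 1 mature form. Where that is so, the assay name does not say which form was read. For the members listed below, each form matched by name is given. The sequences below are from RefSeq and belong to members that were detected and whose values are described below: the earliest with a RefSeq gene (miR-550 and miR-615), those with a single mature form (miR-572, miR-622 and miR-650), and a pair whose ratios lie on opposite sides of 0 (miR-589 and miR-579). Capitals mark the seed.
miR-550a-5p: aGUGCCUGagggaguaagagccc
miR-550a-3p: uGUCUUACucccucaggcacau
miR-615-5p: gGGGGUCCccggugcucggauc
miR-615-3p: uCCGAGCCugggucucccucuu
miR-572: gUCCGCUCggcgguggccca
miR-622: aCAGUCUGcugagguuggagc
miR-650: aGGAGGCAgcgcucucaggac
miR-589-5p: uGAGAACCacgucugcucugag
miR-589-3p: uCAGAACAaaugccgguucccaga
miR-579-5p: uCGCGGUUugugccagaugacg
miR-579-3p: uUCAUUUGguauaaaccgcgauu

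The detected members were not a seed family. Matching by name gave 17 mature forms in RefSeq for 10 of the 13 detected members, and these had 17 different seeds. miR-550a-3-5p, by its name a further form of miR-550, was not among the 17 and has the seed of miR-550a-5p. Of the 17, 5 shared their seed with a human mature form of RefSeq outside the 17: miR-550a-5p with miR-1271-3p and miR-550a-3-5p, miR-550a-3p with miR-200c-5p, miR-579-3p with miR-664b-3p, miR-642a-3p with miR-642b-3p, and miR-650 with miR-3612.

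Most of the late-numbered miRNAs did not amplify. In the control, 13 of 75 (17.3%) were below cycle 35, against 43.0% of all miRNA assays. In ANGPTL1 cells the count was again 13 (17.3%), against 43.3%. The same 13 members were detected in both samples, and none in 1 sample alone. Over all 365 miRNA assays, 157 were detected in the control, 158 in ANGPTL1 cells and 145 (39.7%) in both. With only 13 detected members, the full overlap is not read as a trait of the set. Cycle 40 was recorded for 52 members (69.3%) in the control, beside 42.5% of all assays, and for 51 (68.0%) in ANGPTL1 cells, beside 41.9%. A set of 46 members stood at 40 in both samples. The remaining 16 members amplified in at least 1 sample, but never before cycle 35. The members thus supplied 8.28% of the detected miRNAs in the control while holding 20.5% of the card.

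Along the rest of the card, the share of detected assays was highest among low numbers, but it did not decline evenly. In the control, 52 of 57 assays for let-7 and miR-1 to miR-99 were detected (91.2%), then 40 of 66 for miR-100 to miR-199 (60.6%), 8 of 28 for miR-200 to miR-299 (28.6%) and 22 of 49 for miR-300 to miR-399 (44.9%). From miR-400 to miR-499 it was 14 of 36 (38.9%), and from miR-500 to miR-544 it was 7 of 50 (14.0%), below the 17.3% of the members. The corresponding shares in ANGPTL1 cells were 86.0%, 63.6%, 28.6%, 44.9%, 47.2% and 12.0%. Low detection was therefore shared by the members and the numbers just before them. At the edges of the range, miR-545 stood at cycle 36.33 in control cells and 35.56 with ANGPTL1, while miR-662, the highest number inside, and miR-544, the nearest number outside, stood at 40 in both.

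**Figure D1:**
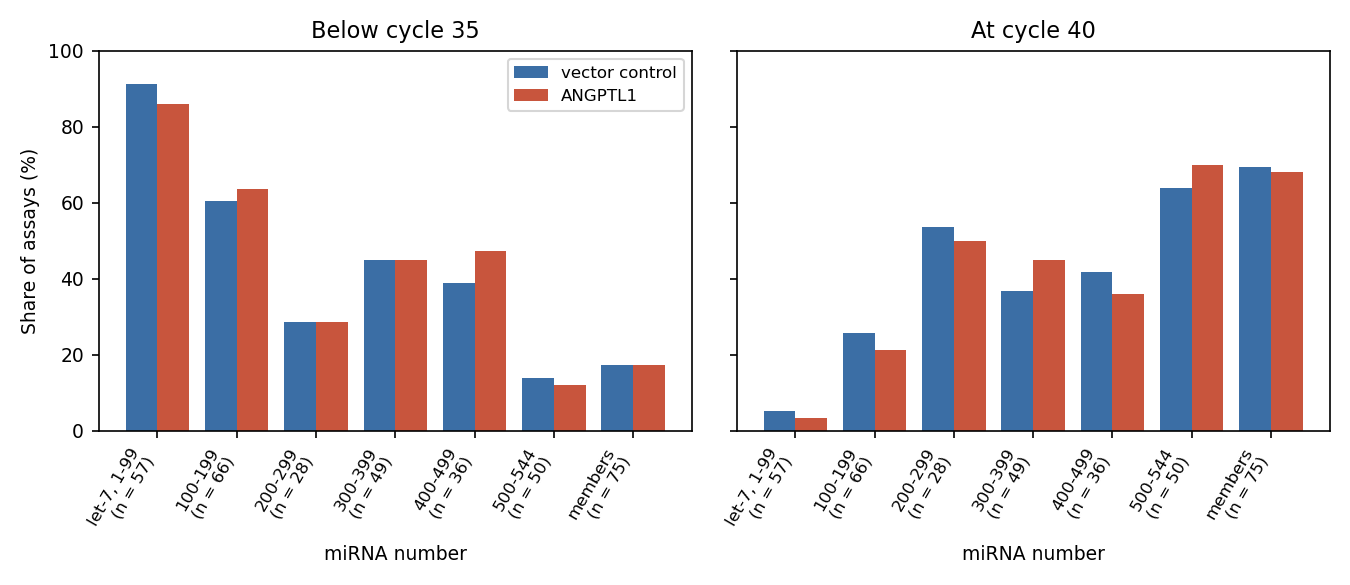
Share of assays (%) below cycle 35 (left) and at cycle 40 (right) by miRNA number, with 1 bar for the control sample and 1 for the ANGPTL1 sample; n is the number of assays. Of the members, 17.3% were below cycle 35 in each sample and 69.3% and 68.0% stood at cycle 40.

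The earliest members were entries with no miRNA gene in RefSeq. miR-594 crossed threshold at cycle 20.73 in control cells and 21.96 with ANGPTL1, the second earliest of 157 detected miRNAs in the control and of 158 in ANGPTL1 cells. Its cycle minus that of RNU48, the small nucleolar RNA used as reference, was -0.06 in the control and 0.75 with ANGPTL1. miR-565 stood at 25.78 and 27.07, at rank 30 in control cells and 42 with ANGPTL1. Both names belong to entries later dropped as miRNAs, so the level of these amplicons is not the level of an accepted miRNA. The other member without a RefSeq gene, miR-566, stood at 40 in both samples. No sequence for these 3 assays was used here.

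Among the 72 members with a RefSeq gene, 11 (15.3%) were detected in each sample, and none crossed before cycle 29.92. miR-660, whose number lies in the range but which the rule leaves out, was earlier, at 26.44 in control cells and 27.08 with ANGPTL1. Cycles order the assays only roughly by level, because assays can differ in efficiency, which was not measured. miR-550 was the earliest of the 11 members in the control, at cycle 29.92, and stood at 31.12 in ANGPTL1 cells. It lies 4.14 cycles after miR-565 in the control. Its 3 hairpin genes are on chromosome 7 of GRCh38.p14, and that at chr7:30289794-30289890 lies within ZNRF2, a ubiquitin ligase gene on the same strand. miR-615, at chr12:54033950-54034045 within the homeobox genes HOXC4 and HOXC5, stood at 29.96 in control cells and 30.55 with ANGPTL1. miR-550 was marginally earlier in the control and miR-615 in ANGPTL1 cells, so they have no settled order. The other 9 crossed from cycle 32.13 in the control, and so lay within 3 cycles of the detection limit.

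Of those 9, 4 lie within protein-coding genes on the same strand. miR-642 stood at 32.13 in control cells and 32.32 with ANGPTL1, and lies at chr19:45674928-45675024 within GIPR, the receptor gene of an incretin hormone. miR-579 stood at 32.62 and 33.67, at chr5:32394378-32394475 within ZFR, which encodes a zinc finger RNA-binding protein. miR-629 stood at 32.78 and 32.94, at chr15:70079372-70079468 within TLE3, a transcriptional corepressor gene. miR-576 was the latest in the control, at 34.33, with 34.18 in ANGPTL1 cells, and lies at chr4:109488698-109488795 within SEC24B, a gene of the COPII vesicle coat. In these 4 members the samples differed by 0.19 cycles or less except in miR-579, which was later in ANGPTL1 cells by 1.05. The other detected members within same-strand genes were also later there. These were miR-615, by 0.59, and miR-550, through its hairpin gene in ZNRF2, by 1.2. These are cycles before normalization, and RNU48 was itself later by 0.42. After normalization to RNU48, 3 of the 6 detected members within same-strand genes were higher in ANGPTL1 cells and 3 were lower. Whether each hairpin is in an intron or an exon of its host was not read here, since only gene spans were used.

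A further 4 lie within annotated genes whose strand is not given in the tables used here. miR-589 stood at 32.89 in control cells and 32.43 with ANGPTL1, and lies at chr7:5495819-5495917 within the span of FBXL18, an F-box gene. miR-650 stood at 32.48 and 33.49, at chr22:22822776-22822871 within IGL, the immunoglobulin lambda light chain locus. miR-572 stood at 32.66 and 33.67, at chr4:11368827-11368921 within the span of RNPS1P1, a pseudogene. miR-622 stood at 33.47 and 34.74, at chr13:90231182-90231277 within KRT18P27, a pseudogene of the epithelial keratin KRT18. All but miR-589 were later in ANGPTL1 cells. The last detected member was miR-548d, at 33.72 and 34.84.

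**Figure D2:**
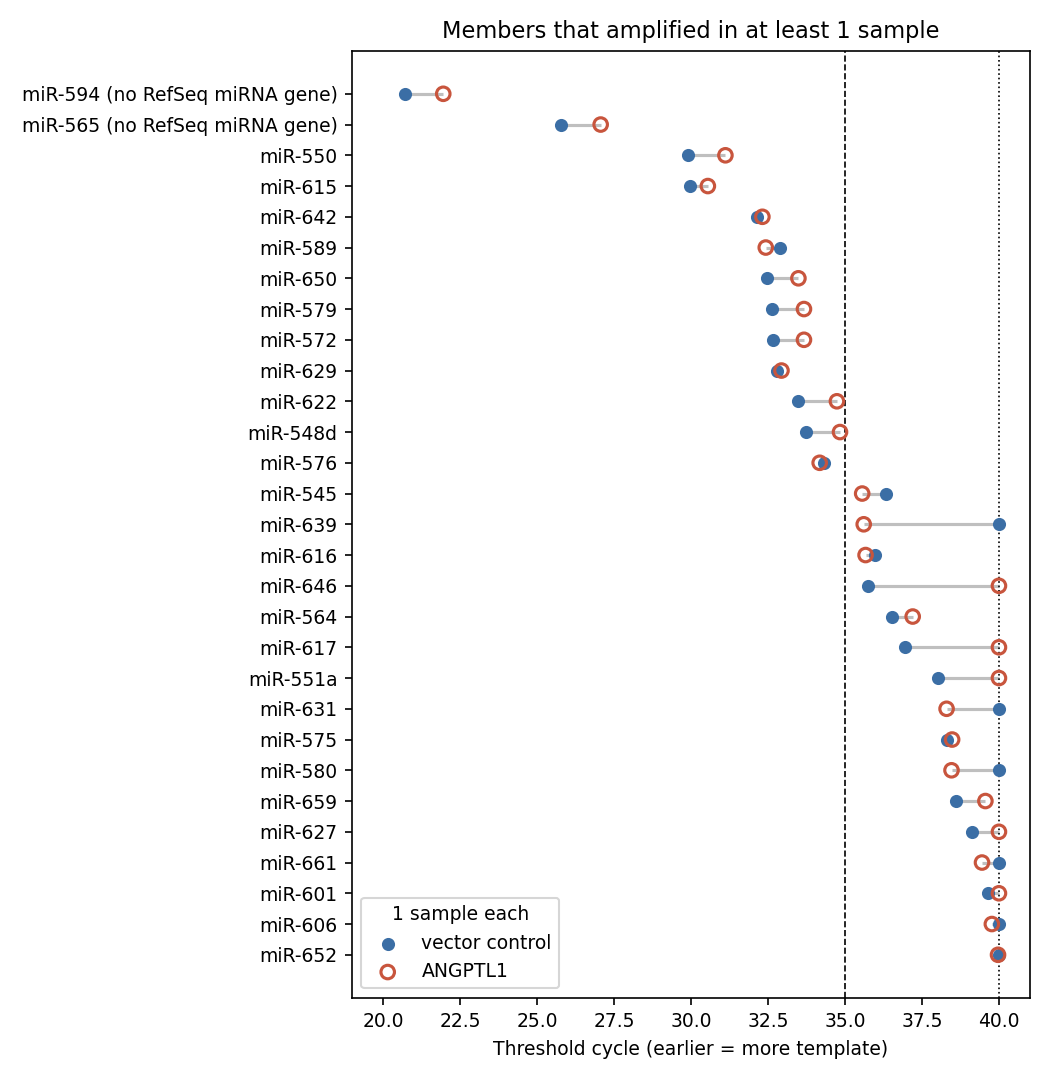
Threshold cycle of the 29 members that amplified in at least 1 sample, with a filled point for the control sample and an open ring for the ANGPTL1 sample, joined by a line; dashed and dotted lines mark cycles 35 and 40. miR-594 and miR-565 stand apart at 20.73 and 25.78 in the control, and the next member is at 29.92.

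RefSeq places 48 members within a gene on the same strand, and 6 of these 48 (12.5%) were detected, near the 10.5% of the 57 members whose placement is known and the 17.3% of all members. Of the 9 members placed outside any same-strand gene, 0 were detected. The gene, or the strand of the miRNA or of the gene around it, was not found in the tables used here for the other members, among them 7 of the 13 that were detected, so these shares describe only part of the set. A list of members in well-known host genes, drawn up with earlier results of these data in view, had 9 assays on the card and 5 detected, and it supports nothing on its own.

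A list of members known to have a mouse miRNA of the same number, from general knowledge and not complete, had 5 assays on the card, of which miR-615 was detected (20.0%, beside 17.3% of all members). miR-652, within TMEM164, stood at 40 in control cells and 39.97 with ANGPTL1, and miR-551b, miR-599 and miR-653 stood at 40 in both. In the miR-548 family, a primate family derived from the Made1 transposon, miR-548d was the detected member of 4 on the card, and miR-548a, miR-548b and miR-548c stood at 40 in both samples.

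After normalization to RNU48, no detected member differed by 2-fold between the samples. The count was 0 of 13, beside 18 of all 145 miRNAs detected in both samples (12.4%). The ratio was taken as log2 of ANGPTL1 over control. It ranged from -0.87 (miR-565) to 0.88 (miR-589) with a median of -0.59, and the median over all 145 was -0.01. A ratio below 0 was found for 9 of the 13 members, and for 50.3% of the 145. miR-589 was 1.84-fold higher in ANGPTL1 cells, and miR-576, miR-629 and miR-642 had log2 ratios of 0.57, 0.26 and 0.23. Without normalization miR-629 and miR-642 turn negative, at -0.16 and -0.19, and so have no settled direction.

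Of the members on the lower side, 8 lay close together. Before normalization, 8 of the 13 crossed at least 1 cycle later in ANGPTL1 cells, against 20.0% of the 145. Their delays spanned 1.01 to 1.29 cycles, and the limit of 1 cycle itself bounds this span from below. In that order they were miR-650 and miR-572 (1.01 each), miR-579 (1.05), miR-548d (1.12), miR-550 (1.20), miR-594 (1.23), miR-622 (1.27) and miR-565 (1.29). RNU48 itself was later by 0.42. The 8 therefore had log2 ratios from -0.59 to -0.87 and were all at least 1.5-fold lower, where 19.3% of the 145 were. The 2 at -0.59 only just passed this size. Once the RNU48 delay is taken off, this is nearly the same limit as 1 cycle, so it is not a separate result. miR-615 stood apart from them with a delay of 0.59 cycles and a log2 ratio of -0.17. The group of 8 crossed at cycles from 20.73 to 33.72 in the control. It held miR-594 and miR-565 as well as members with a RefSeq gene. The group was set by these same delays, and their cause was not tested.

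**Figure D3:**
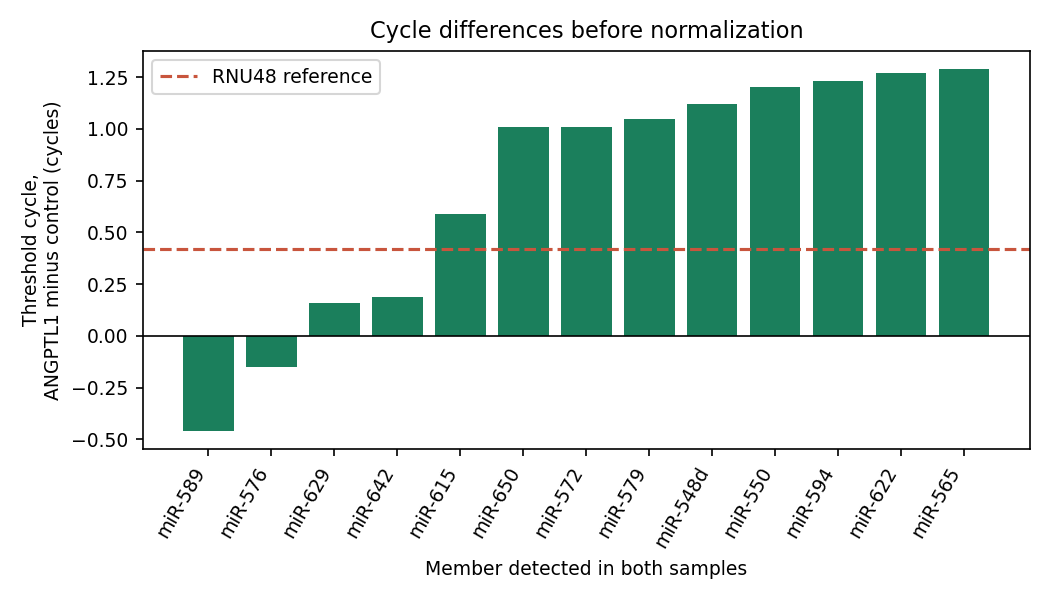
Threshold cycle in ANGPTL1 cells minus that in the control, in cycles before normalization, for the 13 detected members (1 bar each, from 1 sample of each kind); the dashed line is RNU48 at 0.42. A total of 8 bars lie between 1.01 and 1.29, and those of miR-589 and miR-576 are below 0.

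Other miRNAs at similar cycles had a median ratio nearer 0. For a mean cycle from 30 to 35, the 11 members had a median log2 ratio of -0.59 and a range of -0.85 to 0.88. The 49 other miRNAs there had a median of -0.02 and a range of -3.58 to 3.04. At least 1.5-fold lower were 6 of those 11 members (54.5%) and 11 of those 49 others (22.4%). With 1 sample of each kind, no error can be put on the difference between these medians.

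The members cannot be told apart from their assay number series. All 75 members have assay numbers that begin with 4380 or 4381, and only 13 other miRNA assays do. Of these 13, 4 were detected in both samples. miR-425-5p had a log2 ratio of -0.58, miR-532 of -0.47, miR-660 of -0.22 and miR-484 of 0.35. The median of these 4 was -0.34, and that of the 128 detected assays with other numbers was 0.02. None of the 4 was 1.5-fold lower, the size that the group of 8 members passed. miR-425-5p fell just short of it, and miR-484 was higher in ANGPTL1 cells after normalization. Before normalization, the 4 crossed later in ANGPTL1 cells by 1.0 (miR-425-5p), 0.89 (miR-532), 0.64 (miR-660) and 0.08 cycles (miR-484). By that measure miR-425-5p lay at the limit of 1 cycle that set the group of 8. What the number series stands for on the card is not given in the sources used here, and its part in the lower ratios was not tested.

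**Figure D4:**
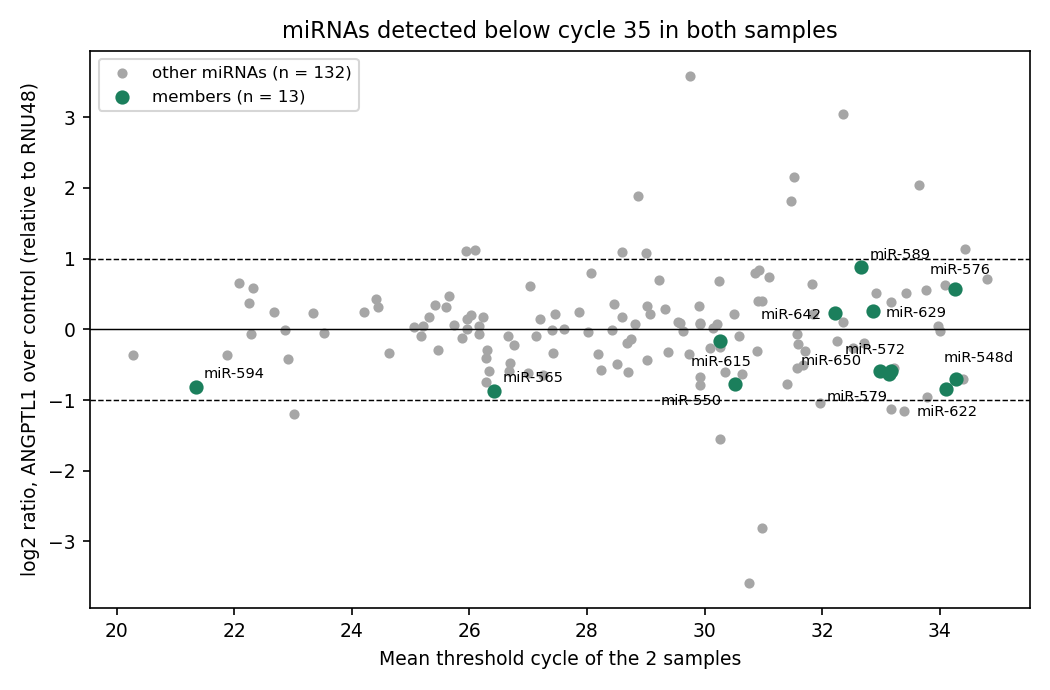
Log2 ratio of ANGPTL1 over control relative to RNU48 against the mean threshold cycle of the 2 samples, for the 13 members (large points) and 132 other miRNAs (small points) detected in both; dashed lines mark 2-fold. No member passes 2-fold, and 8 lie between -0.59 and -0.87.

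The 16 members that amplified only at cycle 35 or later gave the largest deposited fold changes of the set, and no error can be put on them from 1 sample of each kind. Nearest the limit were miR-545, which lies in the noncoding gene FTX, at 36.33 in control cells and 35.56 with ANGPTL1, miR-639 at 40 and 35.61, miR-616 at 35.96 and 35.67, and miR-646 at 35.74 and 40. Of the 16, 5 had a cycle between 35 and 40 in both samples, 5 stood at 40 only in ANGPTL1 cells and 6 only in the control. The gaps thus fell about equally on the samples, as they did over the whole card. Of all 365 miRNA assays, 23 stood at 40 only in ANGPTL1 cells and 25 only in the control. Assays at 40 in 1 sample alone made up 14.7% of the members and 13.2% of all miRNA assays.

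In the authors' deposited table, 7 members exceed 2-fold, 4 higher and 3 lower in ANGPTL1 cells, and 0 of these 7 were detected in both samples. The share of all miRNA assays past 2-fold in that table was not counted, so 7 is not read as many or few. The same source, the authors' deposited table, gives miR-639 as 28.1-fold higher, miR-631 as 4.35-fold, miR-580 as 3.89-fold and miR-545 as 2.28-fold higher. On the lower side the authors' deposited table gives miR-646 as 14.3-fold, miR-617 as 6.19-fold and miR-551a as 2.95-fold lower. Except for miR-545, each of these rests on a value of 40 in 1 sample. Each of the 46 members at 40 in both samples has 1.34-fold in the authors' deposited table, a log2 ratio of 0.42, which is the RNU48 difference and holds no measurement of the miRNA.

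As a check of the cells, short lists of cell type markers were read on the card. Of 6 epithelial assays (miR-200a, miR-200b, miR-200c, miR-141 and miR-205) only miR-200c was below cycle 35 in both samples, at 32.16 in control cells and 30.77 with ANGPTL1, and the other 5 were at 35 or later in both. Both assays of the endothelial miRNA miR-126 were detected in both samples, as was 1 of 4 muscle assays. Among 4 blood assays, 1 was detected in the control alone, and 0 of 3 mesenchymal and 0 of 1 liver assays were detected. The lists are not complete, and other miRNAs known from such cells were detected in both samples, among them miR-203 of epithelia (mean cycle 30.89), miR-155 and miR-486 of blood cells (29.76 and 30.75) and miR-199a of mesenchymal cells (34.39), which were picked after their values were seen. Mean cycles hide differences between the samples. The log2 ratio of ANGPTL1 over control was -0.3 for miR-203, 3.58 for miR-155, -3.58 for miR-486 and -0.7 for miR-199a. By the sample titles, both RNA samples came from CL1-5 cells. The cycles of these markers do not identify the cell type on their own.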

How the data were processed

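Mature miRNAs were measured on a TaqMan Low Density Array card for human microRNAs (40 cycles) in 1 control and 1 ANGPTL1 sample, per the labels' protocols. Per the file headers, the deposited values were, for each assay, an average threshold cycle (a score on a cycle scale), a delta Ct (a score: the cycle minus that of RNU48), and a fold change, the ratio of ANGPTL1 over control. For the threshold setting, the software and the wells averaged, the sources used here give nothing. Log2 ratios of ANGPTL1 over control were taken from the delta Ct values (control minus ANGPTL1), for miRNAs below cycle 35 in both samples, with 2-fold as the counted size. Sequencing depth does not apply to PCR cycles. With 1 sample per group, no interval is given and there is no test. Groups came from the treatment labels. The members and lists were chosen with earlier results of these data known. Named were all members below cycle 35, those nearest it, all members without a RefSeq gene and list members that amplified; others named, such as members at cycle 40 on the lists or those in the authors' deposited table, were chosen after their values were seen. Sequences and gene spans came from RefSeq (GRCh38.p14), matched by name. Steps ran in Python 3.11.15 with pandas 2.3.3 and were tested on simulated data. Alternatives were detection below 32, 38 or 40, no normalization, RNU48 recomputed, a global median reference, the authors' deposited ratio, 1.5-fold and 4-fold sizes, and leaving out members without a RefSeq gene. In the delta Ct table, 2 columns that repeat it on a linear scale were not used.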

Additional observations from a re-analysis of the deposited data

How the results depend on the processing

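The count of 13 detected members per sample became 4 and 4 with a limit of cycle 32, and 23 (control) and 24 (ANGPTL1 cells) with any cycle below 40; the count detected in 1 sample alone, 0, became 3 with a limit of 38 and 11 with any cycle below 40. These limits take in fewer or more assays. The median log2 ratio of -0.59 was -0.79 with a limit of 32, -0.42 with 38, -0.39 with any cycle below 40 and -1.01 without normalization, below 0 in each. The count at least 2-fold lower, 0, was 8 without normalization and 8 at 1.5-fold; the count at least 2-fold higher, 0, was 1 with a limit of 38, with any cycle below 40 and at 1.5-fold. Without normalization each ratio is lower by 0.42, so miR-629 (-0.16) and miR-642 (-0.19) changed sign. RNU48 recomputed, the global median reference and the authors' deposited ratio shift the ratios by 0.01 or less and test little. Leaving out the 3 members without a RefSeq gene moved no count by over 1.5 times. With 1 sample a group, leaving out a replicate does not apply. No paired analysis was possible because the groups hold 1 sample each.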
